A study of Homo sapiens with 22 samples.

Results

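The 10 genes described here make serine, asparagine or glutamine, release or oxidise one-carbon units from serine inside mitochondria, or belong to the transcriptional response of ATF4. They are PHGDH, PSAT1, PSPH, SHMT2, MTHFD2, ASNS, GLUL, ATF4, DDIT3 and TRIB3, chosen by name, and all 10 were found among the 25343 genes of each table. The data are RNA-seq of cultured human renal cancer lines, 22 libraries in 7 groups. One line, titled RNA-Seq_786-M1A in the labels, is called M1A here. CRISPR interference (CRISPRi) uses a Cas9 without nuclease activity to bring a repressor to the DNA that a guide matches. It was applied to M1A cells with the guides iMAE-1.2 (4 libraries), iMAE-1.1 (4) and iMAE-126 (2). A guide without a target, SC, gave 6 libraries and is their control. The lines themselves gave 2 libraries each: OS-LM1, M1A and 786-O. From earlier work, M1A is a metastatic derivative of 786-O, a line from a clear cell renal carcinoma, and OS-LM1 is a metastatic derivative of another renal cancer line. All groups other than OS-LM1 therefore descend from 786-O, which lacks a working VHL gene. The labels give no target for the iMAE guides, and they do not say whether the libraries of a group came from separate cultures, so that the p-values measure only the spread between these libraries.

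Serine is made from the glycolytic intermediate 3-phosphoglycerate by PHGDH, which oxidises it, PSAT1, which moves an amino group onto it from glutamate, and PSPH, which removes the phosphate. SHMT2 then splits serine into glycine and a one-carbon unit inside mitochondria, and MTHFD2 oxidises that unit. ASNS makes asparagine from aspartate and glutamine, and GLUL makes glutamine from glutamate and ammonia. When uncharged tRNA, misfolded protein or other stress leads to phosphorylation of the translation factor eIF2, synthesis of most proteins slows while that of ATF4 increases. ATF4 is a transcription factor that activates genes of amino acid synthesis and uptake, DDIT3 (also called CHOP), a transcription factor of prolonged stress, and TRIB3, a pseudokinase that dampens ATF4 activity. ATF4 is controlled largely at translation, which RNA levels do not show. The growth medium, RPMI with serum, supplies serine, asparagine and glutamine.

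Library totals were 9062605 to 52706490 counts. By the length of the expressed genes, averaged over reads, the CRISPRi libraries split into 2 sets, which the labels do not name. A long-gene set (3528 to 3716 bases) held both iMAE-126 libraries and SC replicates 1 and 2. A short-gene set (3264 to 3395 bases) held the iMAE-1.2 and iMAE-1.1 libraries, 4 of each, and SC replicates 3 to 6. This length was 3391 to 3617 bases in OS-LM1, 3929 to 3982 in M1A and 3909 to 3915 in 786-O. PAX8, a transcription factor of renal epithelium, stood at 169 to 539 CPM (counts scaled to library size) in all libraries. CDH16 was the lowest of the renal markers looked at, with 7.24 to 9.1 CPM in OS-LM1 and 1.1 to 22 CPM in the others. Among hypoxia genes of VHL-deficient renal cancer, CA9 and NDUFA4L2 had 22.9 to 26.5 and 63.1 to 101 CPM in OS-LM1. In the other libraries they had 0 to 0.165 and 0 to 0.534 CPM, while VEGFA, EGLN3 and EPAS1 had at least 182, 34 and 40.1 CPM. The summed level of 9 markers of blood and endothelial cells was 1.14 to 4.26 CPM, with CD3E and HBB among those at 0 everywhere.

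PHGDH, which starts serine synthesis, and GLUL, the only enzyme that makes glutamine, were the members that differed most between lines: both were expressed in OS-LM1 and close to absent wherever cells descended from 786-O. Because expression of both was all but confined to 1 line, the 250 bases before their start sites are shown, from RefSeq on GRCh38.p14, with CG pairs in capitals. PHGDH lies on the plus strand (chr1:119711684-119711933), and GLUL on the minus strand (first of its windows, chr1:182391791-182392040).
PHGDH: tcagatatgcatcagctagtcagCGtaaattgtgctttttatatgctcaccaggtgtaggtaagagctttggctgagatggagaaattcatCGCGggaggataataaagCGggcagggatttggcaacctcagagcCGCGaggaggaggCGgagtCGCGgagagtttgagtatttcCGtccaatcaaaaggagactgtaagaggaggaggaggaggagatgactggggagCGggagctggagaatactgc
GLUL: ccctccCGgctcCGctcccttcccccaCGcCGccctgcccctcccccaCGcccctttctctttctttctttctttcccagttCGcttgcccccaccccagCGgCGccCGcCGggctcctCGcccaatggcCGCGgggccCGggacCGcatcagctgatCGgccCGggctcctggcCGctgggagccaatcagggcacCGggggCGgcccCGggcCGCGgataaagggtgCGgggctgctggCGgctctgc
The PHGDH window held 11 CG pairs, equal to the median of 35116 promoter windows, and the GLUL window held 25. DNA methylation was not measured in these libraries.

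PHGDH had 569 and 419 counts in the OS-LM1 libraries, which is 22.6 and 25.8 CPM. It had 0 counts in each of the 20 other libraries. Over their summed effective total of 456048456 counts, the limit that a count of 0 allows (3 counts) is 0.00658 CPM. The PHGDH level was thus at least 692-fold higher in OS-LM1 than in M1A and at least 620-fold higher than in 786-O, with the limit taken over the group.

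GLUL had 1791 and 1039 counts in OS-LM1, or 71.2 and 63.9 CPM. Over the 20 other libraries it had 16 counts in 8 of them, 6 in iMAE-1.2, 3 in iMAE-1.1, 4 in iMAE-126, 3 in SC, and 0 in both M1A and 786-O. OS-LM1 thus stood at least 1980-fold above M1A and at least 1780-fold above 786-O. Against all 20 libraries the ratio was 1950, with an exact 95% interval of 1200 to 3410 that covers counting error only.

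Genes with a pattern of this kind were counted. Of 10955 genes with at least 100 counts in each OS-LM1 library, 4 (0.0365%) had 0 counts in all 20 others: PHGDH, the lysosomal enzyme gene GALC, ATL1 and OVOL1-AS1. Another count, at most the 16 counts of GLUL, was met by 36 (0.329%). The limits were taken from the members, 0 counts from PHGDH and 16 from GLUL, so that each meets its own by construction. The floor of 100 counts likewise selects genes expressed in OS-LM1. The 20 other libraries all descend from the same line, so that they are not independent observations. Both shares are a description without a test. The nearest 3 genes on each side were looked up after these values were seen, in the order of RefSeq on GRCh38.p14. ZNF697, beside PHGDH, and IER5 and TEDDM1, near GLUL, had counts in all 20 of the other libraries, while REG4, ZNF648 and CACNA1E were at 0 in OS-LM1 too. ZNF697 stood at 10.9 to 14.9 CPM in OS-LM1 and 9.44 to 32.6 CPM in the others, and IER5 at 48.2 to 54.1 CPM in OS-LM1 and 39.3 to 97.8 CPM in the others. As these are bulk cultures, fewer cells with a transcript and less of it per cell cannot be told apart, here or in any comparison that follows.

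**Figure D1:**
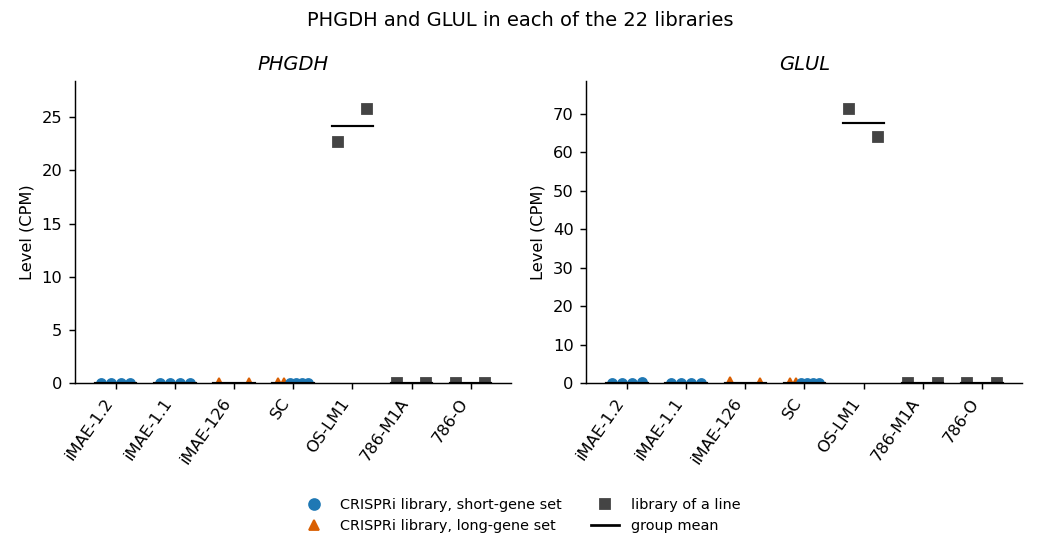
Levels of PHGDH and GLUL (CPM, y axis) in each of the 22 libraries by group (x axis); points are libraries, black lines group means. The OS-LM1 libraries stand at 22.6 and 25.8 CPM for PHGDH and 63.9 and 71.2 CPM for GLUL, and the 20 others lie at or close to 0.

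The other 8 genes had reads in every library. On the TPM scale, which also corrects for transcript length, ATF4 was the most abundant of them in every group, with 832 ± 108 TPM in OS-LM1, 352 ± 9.83 in M1A and 430 ± 12.4 in 786-O (mean ± SD, n = 2 each). The order below it differed between lines. In M1A, MTHFD2 (171 ± 8.46 TPM) and PSAT1 (142 ± 7.71) came next, and in OS-LM1 TRIB3 (270.3 ± 0.622) and SHMT2 (193 ± 1.73). DDIT3 was the least abundant of the 8 in each line, at 43.4 ± 11.8 TPM in OS-LM1, 16.1 ± 0.17 in M1A and 28.4 ± 5.2 in 786-O. PSAT1 and PSPH, the steps after PHGDH, were thus expressed at 142 and 28.6 TPM in M1A cells in which no PHGDH read was counted. PHGDH itself was the least abundant of all 10 in OS-LM1, at 23.4 ± 1.82 TPM, with GLUL at 31.7 ± 2.86 TPM.

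Counts of PSPH, MTHFD2 and DDIT3 were fractional in 21, 22 and 22 of the 22 libraries, which means that some of their reads also matched other annotated sequences. DDIT3 overlaps the end of the tRNA synthetase gene MARS in RefSeq, which stood at 97.3 to 147 CPM, and the sources used here do not say how strand entered the counting. The levels of these genes are uncertain to that extent.

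**Figure D2:**
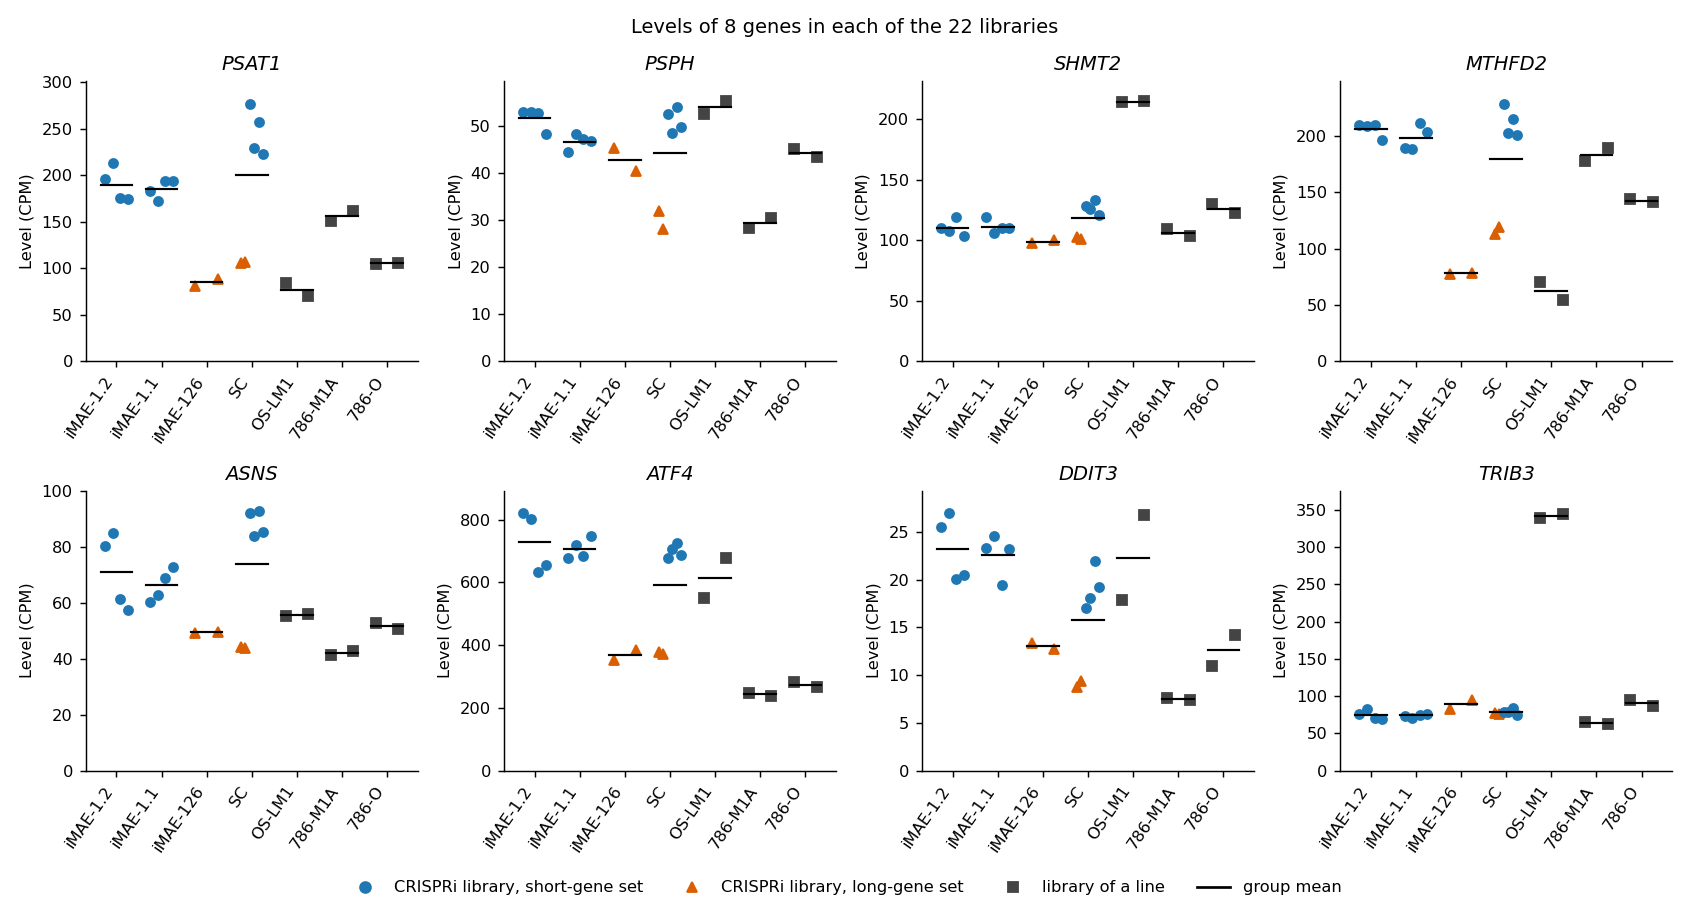
Levels of 8 genes (CPM, y axis, each panel with its own scale from 0) in the 22 libraries by group (x axis); points are libraries, black lines group means, and colour and shape give the library set of the CRISPRi libraries. TRIB3 is highest in OS-LM1 (338 and 344 CPM), MTHFD2 lowest there (54.3 and 70.7 CPM), and within SC the libraries of the 2 sets lie apart for every gene shown other than TRIB3.

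The metastatic derivative M1A was compared with its parent 786-O first. PSAT1, the second enzyme of serine synthesis, was higher in M1A, whereas PSPH, ASNS, DDIT3 and TRIB3 were lower. These were changes of under 2-fold. Of the 8 genes with reads throughout, 1 was called higher, against 14.7% of the 16354 genes tested, and 4 were called lower, against 16.3%. The median log2 fold change was -0.31 over the 8 and -0.02 over all genes.

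PSAT1 stood at 150.4 and 161 CPM in M1A, against 105 and 106 CPM in 786-O. The libraries of the lines did not overlap, and the log2 fold change was 0.52 ± 0.12 (SE; edgeR adjusted p = 0.0102). PSPH, the last enzyme, had 28.3 and 30.5 CPM in M1A, against 45 and 43.4 CPM in 786-O. It fell by 0.63 ± 0.097 on the log2 scale (edgeR adjusted p = 0.00194). The mitochondrial enzymes did not pass the test, with a log2 fold change of -0.29 for SHMT2 (edgeR adjusted p = 0.0601) and 0.32 for MTHFD2 (edgeR adjusted p = 0.108). SHMT2 was called lower by DESeq2 (adjusted p = 0.0321), by limma on log2(TPM + 1) (adjusted p = 0.0179), and by edgeR at a minimum count of 50 (adjusted p = 0.0387) or with the compared groups alone (adjusted p = 0.000151). MTHFD2 was called higher by edgeR with the compared groups alone (adjusted p = 3e-05) or without the filter on low counts (adjusted p = 0.032).

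ASNS had 41.4 and 42.8 CPM in M1A, against 53.0 and 50.8 CPM in 786-O (log2 fold change -0.34 ± 0.092, edgeR adjusted p = 0.0234). The ASNS call was lost without the filter on low counts (edgeR adjusted p = 0.0556) and with a replicate block (edgeR adjusted p = 0.0539). ATF4 itself had 249.1 and 238 CPM in M1A, against 281 and 268 CPM in 786-O. ATF4 was not called (log2 fold change -0.21, edgeR adjusted p = 0.218), but it was called lower with the compared groups alone (edgeR adjusted p = 0.000577). DDIT3 and TRIB3 were lower in M1A. DDIT3 had 7.62 and 7.39 CPM in M1A, against 10.98 and 14.2 CPM in 786-O (log2 fold change -0.79 ± 0.20, edgeR adjusted p = 0.0203). TRIB3 had 65.0 and 62.6 CPM in M1A, against 94.9 and 87.2 CPM in 786-O (log2 fold change -0.55 ± 0.10, edgeR adjusted p = 0.00464).

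The libraries of M1A and 786-O lay apart for all 8 genes, as they did for 75.2% of all genes tested. PSPH kept its call when each library in turn was left out. PSAT1 and ASNS lost theirs without any of the 4 libraries, DDIT3 without either M1A library or 786-O replicate 2, and TRIB3 without either M1A library or 786-O replicate 1, at edgeR adjusted p of 0.0604 to 0.209 and with the direction kept. No call was left at a log2 fold change of at least 1.

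OS-LM1 differed from M1A in all 8 genes. The ATF4 branch was higher in OS-LM1, TRIB3 most of all, together with SHMT2, PSPH and ASNS, while PSAT1 and MTHFD2 were lower. Thus the serine pathway was split: PHGDH, PSPH and SHMT2 were higher in OS-LM1, and PSAT1 and MTHFD2 higher in M1A. Of the 8, 6 were called higher, against 34.4% of all genes tested, and 2 lower, against 34.3%. The medians were 0.95 over the 8 and 0.04 over all genes. The mean gene length was 3391 to 3617 bases in OS-LM1, 3929 to 3982 in M1A and 3909 to 3915 in 786-O. Its part in the differences between OS-LM1 and either line was not tested.

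TRIB3 stood at 338 and 344 CPM in OS-LM1, against 65.0 and 62.6 CPM in M1A. The log2 fold change was 2.43 ± 0.11 (edgeR adjusted p = 7.72e-07). ATF4 had 549.6 and 677 CPM in OS-LM1, against 249.1 and 238 CPM in M1A, and its log2 fold change was 1.34 ± 0.12 (edgeR adjusted p = 3.62e-05). DDIT3 had 17.9 and 26.8 CPM in OS-LM1, against 7.62 and 7.39 CPM in M1A (log2 fold change 1.57 ± 0.21, edgeR adjusted p = 0.000254). No library of one line reached the range of the other for any of the 3, as for 84.9% of all genes tested. The OS-LM1 libraries were close for TRIB3 and further apart for DDIT3.

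SHMT2 had 214.1 and 214.6 CPM in OS-LM1, against 109 and 103 CPM in M1A (log2 fold change 1.02 ± 0.10, edgeR adjusted p = 5.02e-05). MTHFD2, the next mitochondrial step, moved the other way. It had 70.7 and 54.3 CPM in OS-LM1, against 177.5 and 189 CPM in M1A (log2 fold change -1.54 ± 0.14, edgeR adjusted p = 3.37e-05). PSAT1 had 83.8 and 70.5 CPM in OS-LM1, against 150.4 and 161 CPM in M1A (log2 fold change -1.003 ± 0.12, edgeR adjusted p = 0.000131). For these genes too the lower line stayed below the other in both libraries, and 84.9% of all genes tested lay apart in this comparison. PSPH, at 52.6 and 55.3 CPM in OS-LM1, rose by 0.89 ± 0.098 on the log2 scale relative to M1A, and ASNS, at 55.4 and 56.1 CPM, by 0.42 ± 0.093 (edgeR adjusted p = 9.82e-05 and 0.00415). The ASNS call was lost without M1A replicate 1 (edgeR adjusted p = 0.0621).

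ASNS carries the best known element of the ATF4 response, bound by ATF4 with a C/EBP partner, and its window is shown for that reason. The element was searched as TGATGNAA on both strands of 14 windows of 8 of the genes (no window was listed for PSPH and SHMT2). It was found once, in ASNS, beginning 68 bases before the start, on the minus strand of chr7:97872409-97872658 (RefSeq, GRCh38.p14), where it is in capitals. It occurs in 3.14% of all 35116 windows, and a match is not a measured binding site.
ASNS: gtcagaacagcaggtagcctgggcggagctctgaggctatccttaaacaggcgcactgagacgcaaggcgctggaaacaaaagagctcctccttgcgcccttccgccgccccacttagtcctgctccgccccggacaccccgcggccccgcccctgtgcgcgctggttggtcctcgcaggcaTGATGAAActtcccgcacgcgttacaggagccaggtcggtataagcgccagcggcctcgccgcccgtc

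Relative to 786-O, TRIB3, ATF4, DDIT3 and SHMT2 were again higher in OS-LM1 and PSAT1 and MTHFD2 lower, with log2 fold changes smaller in size than against M1A. The comparison shares its OS-LM1 libraries with the previous one, so that it adds no independent evidence. Of the 8 genes, 5 were called higher, against 30.4% of all genes tested, and 2 lower, against 33.3%. The log2 fold changes were 1.88 ± 0.10 for TRIB3, 1.13 ± 0.12 for ATF4, 0.78 ± 0.20 for DDIT3 and 0.73 ± 0.10 for SHMT2. PSPH rose by 0.26 ± 0.097 (edgeR adjusted p = 0.0467), and ASNS, at 0.07 ± 0.092, did not pass the test (edgeR adjusted p = 0.501). MTHFD2 had a log2 fold change of -1.22 ± 0.14 and PSAT1 of -0.48 ± 0.12 (edgeR adjusted p = 0.00014 and 0.00719). The calls of PSAT1 and PSPH were lost without either 786-O library (edgeR adjusted p = 0.0534 to 0.264), and that of DDIT3 without 786-O replicate 1 (edgeR adjusted p = 0.0823). The PSPH call was also lost without the filter on low counts (edgeR adjusted p = 0.0736), with the compared groups alone (edgeR adjusted p = 0.0662) and with limma on log2(TPM + 1) (log2 fold change 0.09, limma adjusted p = 0.386).

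**Figure D3:**
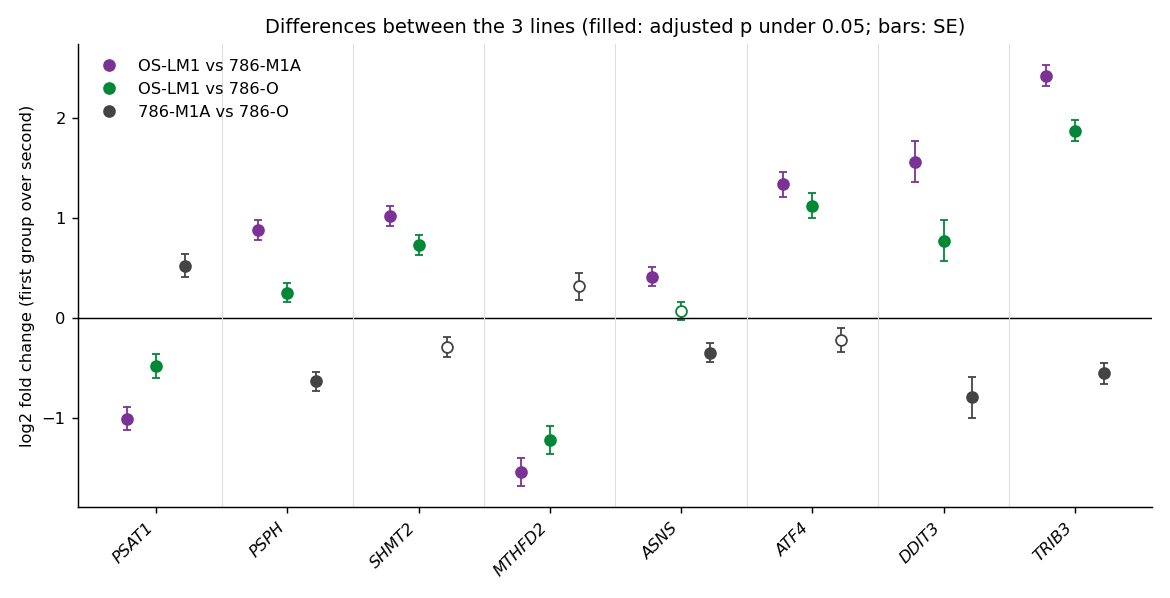
Log2 fold changes (y axis, first group over second) of 8 genes (x axis) between the lines, with SE bars and filled points at an edgeR adjusted p under 0.05. TRIB3, ATF4 and DDIT3 lie above 0 in OS-LM1 against both other lines, MTHFD2 and PSAT1 below 0, and in M1A vs 786-O PSAT1 alone is called higher.

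Other genes of these pathways were counted in lists chosen by function. In OS-LM1 relative to M1A, 15 of 25 other ATF4 targets rose and 5 fell, where 34.4% of all genes were called higher and 34.3% lower. Their median log2 fold change was 0.68, against 0.04 over all genes. GDF15, a stress-induced hormone, had the largest rise (log2 fold change 3.21 ± 0.18), ahead of the transcription factor gene JDP2 (2.09 ± 0.16) and DDIT4, an inhibitor of mTORC1 (1.89 ± 0.11). The cytosolic aminoacyl-tRNA synthetases, many of which are also ATF4 targets, went the other way: 0 of 20 rose and 14 fell, with a median of -0.80. EPRS, IARS and FARSB, which charge tRNA with glutamate and proline, isoleucine and phenylalanine, led the list at log2 fold changes of -1.77 ± 0.18, -1.51 ± 0.18 and -1.50 ± 0.11. Of 18 genes of eIF2 and its regulators, 0 rose and 9 fell, among them the eIF2 kinases EIF2AK2 (-1.48 ± 0.25) and EIF2AK3 (-1.05 ± 0.20), and IMPACT (-0.84 ± 0.12), an inhibitor of the kinase GCN2.

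Among serine, glycine and one-carbon genes, 9 of 22 rose and 9 fell in OS-LM1 relative to M1A, against 34.4% higher and 34.3% lower of all genes. GLDC, which breaks down glycine in mitochondria, rose by 5.45 ± 0.24 on the log2 scale, to 31.4 ± 4.95 CPM in OS-LM1, against 0.717 ± 0.27 CPM in M1A (SD, n = 2 each). MTFMT, which formylates the initiator tRNA of mitochondria, rose by 1.31 ± 0.11, and the serine transporter gene SLC1A4 had a log2 fold change of -1.26 ± 0.14. Of 28 genes for glutamine, glutamate, proline and aspartate, 3 rose and 16 fell (median -0.75). PRODH, which breaks down proline, rose by 2.99 ± 0.23, as did ASRGL1, an asparaginase (2.25 ± 0.18). ASS1, which joins aspartate to citrulline, was lower in OS-LM1 at 0.604 ± 0.16 CPM, against 22.8 ± 2.24 CPM in M1A (log2 fold change -5.17 ± 0.22). The edgeR adjusted p of these 15 genes was at most 0.00178, and their calls held without any 1 library.

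Relative to 786-O, the counts in OS-LM1 were 14 higher and 8 lower of 25 other ATF4 targets, 0 higher and 15 lower of 20 synthetases, and 2 higher and 9 lower of 18 eIF2 genes. They were 7 higher and 8 lower of 22 one-carbon genes and 3 higher and 17 lower of 28 glutamine and aspartate genes, against 30.4% higher and 33.3% lower of all genes. STC2, a secreted glycoprotein, and GDF15 rose by 2.72 ± 0.12 and 2.81 ± 0.18, and VLDLR, a lipoprotein receptor, had a log2 fold change of -1.85 ± 0.16. ALDH1L2, which oxidises mitochondrial formyl-folate, rose by 3.26 ± 0.30, GLDC by 2.89 ± 0.20 and PRODH by 2.90 ± 0.24. CBS, which starts cysteine synthesis from homocysteine and serine, had a log2 fold change of -1.92 ± 0.14, the purine enzyme PPAT of -1.68 ± 0.18 and the pyrimidine enzyme CAD of -1.43 ± 0.12. The synthetases EPRS, IARS and TARS stood at -1.72 ± 0.18, -1.64 ± 0.18 and -1.58 ± 0.14, and EIF2AK2, EIF2AK1 and IMPACT at -1.41 ± 0.25, -0.92 ± 0.098 and -0.76 ± 0.12.

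Between M1A and 786-O, 3 of the 25 other ATF4 targets rose and 9 fell in M1A. The stress-responsive gene KLHL24 (log2 fold change -2.16 ± 0.13) and SLC7A11, the cystine importer (-1.36 ± 0.19), fell, while STC2 rose by 1.72 ± 0.11. ASS1 rose to 22.8 ± 2.24 CPM in M1A, against 2.08 ± 0.092 CPM in 786-O, and CBS fell to 5.98 ± 0.017 CPM, against 32.0 ± 2.27 CPM (SD, n = 2 each). ALDH1L2, SLC6A9, a glycine transporter, and GFPT2, of hexosamine synthesis, rose by 3.06 ± 0.30, 2.24 ± 0.22 and 1.81 ± 0.14, and ASRGL1 had a log2 fold change of -1.45 ± 0.18. The counts were 4 higher and 4 lower of 22 one-carbon genes, 6 and 4 of 28 glutamine and aspartate genes, 4 and 0 of 20 synthetases, and 4 and 1 of 18 eIF2 genes, against 14.7% higher and 16.3% lower of all genes. The synthetases FARSB, DARS and KARS rose by 0.65 ± 0.10, 0.52 ± 0.10 and 0.47 ± 0.097, and EIF2B3, EIF2AK4 and EIF2B2 by 0.68 ± 0.13, 0.66 ± 0.13 and 0.49 ± 0.11. DARS and KARS lost their calls without any of the 4 libraries, EIF2AK4 and EIF2B2 without all but M1A replicate 2, and EIF2B3 without 786-O replicate 2 (edgeR adjusted p = 0.0559 to 0.114).

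**Figure D4:**
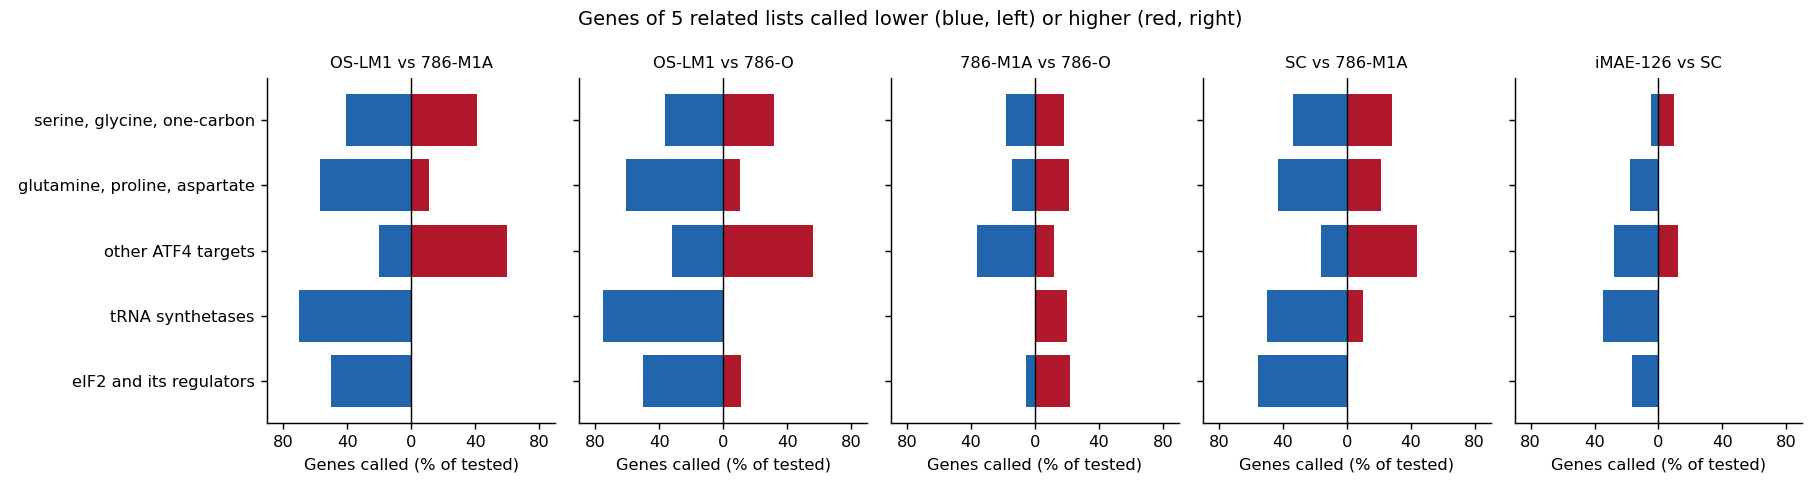
Share of the tested genes of 5 lists called lower (blue, to the left) or higher (red, to the right) at an edgeR adjusted p under 0.05, in percent (x axis), in 5 comparisons. Other ATF4 targets were called higher more often than lower in OS-LM1 against both lines and in SC vs M1A, whereas tRNA synthetases were called mostly lower in these.

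SC cells carry the CRISPRi vector with a guide that has no target and were compared with M1A cells. Over the 6 SC libraries, ATF4, DDIT3, ASNS, PSPH and TRIB3 were higher than in M1A, and no gene of the 8 was called lower. These 5 calls stood against 27.8% of 14769 genes tested called higher and 25.3% lower. The medians were 0.58 over the 8 and 0.07 over all genes. The size of the difference rested on which SC libraries were used.

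ATF4 had 373, 682 and 727 CPM in SC (lowest, median and highest of 6), against 249.1 and 238 CPM in M1A. All SC libraries lay above M1A, and the log2 fold change was 1.38 ± 0.31 (edgeR adjusted p = 0.00698). DDIT3 had 8.8, 17.6 and 22 CPM in SC, against 7.62 and 7.39 CPM in M1A (log2 fold change 1.17 ± 0.36, edgeR adjusted p = 0.0251). ASNS had 43.9, 84.7 and 92.8 CPM in SC, against 41.4 and 42.8 CPM in M1A (log2 fold change 0.91 ± 0.33, edgeR adjusted p = 0.0419). For both genes the groups did not overlap, but the lowest SC libraries were close to M1A. TRIB3 was even across SC, with 74.4, 78.4 and 83.6 CPM, against 65.0 and 62.6 CPM in M1A (log2 fold change 0.40 ± 0.082, edgeR adjusted p = 0.00521). These 4 are the genes of the 8 whose libraries lay apart, as 61.1% of all genes did.

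PSPH had 28.2, 49.2 and 53.9 CPM in SC and overlapped M1A, with a log2 fold change of 0.69 ± 0.26 (edgeR adjusted p = 0.0478). PSAT1 had 105.5, 226 and 277 CPM in SC, against 150.4 and 161 CPM in M1A, so that its SC libraries lay on both sides (log2 fold change 0.46 ± 0.38, edgeR adjusted p = 0.323). MTHFD2 did likewise, with 113, 202 and 228 CPM in SC, against 177.5 and 189 CPM in M1A (edgeR adjusted p = 0.822). SHMT2 did not pass the test either (log2 fold change 0.26 ± 0.13, edgeR adjusted p = 0.107).

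The SC libraries lay in groups by set. Between the short-gene set (4 libraries) and the long-gene set (2), the log2 ratio of the means was 1.21 for PSAT1, 1.07 for DDIT3, 1.01 for ASNS, 0.90 for ATF4, 0.87 for MTHFD2, 0.77 for PSPH, 0.32 for SHMT2 and 0.04 for TRIB3. All were higher in the short-gene set in CPM, and the sets lay apart for 7 of the 8, as for 70.3% of 11075 genes with at least 5 CPM. In 6 of the 8 the ratio was at least 0.5 in size, a difference that 30.1% of those genes showed in either direction. On the TPM scale TRIB3 was lower in the short-gene set (52.74 to 58.47 TPM, against 64.75 to 64.98 TPM in the long-gene set) and SHMT2 overlapped (97.58 to 106.0 TPM, against 97.11 to 98.61 TPM). The sets were defined from these data, and their difference is a description without a test.

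With SC replicates 3 to 6 alone, all 8 genes were called higher than in M1A on the CPM scale, where 39.7% of genes were called higher and 39.4% lower. The log2 fold changes ran from 0.27 ± 0.063 for MTHFD2 to 1.58 ± 0.066 for ATF4. With SC replicates 1 and 2 alone, 2 were called higher and 2 lower, where 24.1% of genes were called higher and 27.2% lower. ATF4 (0.73 ± 0.055) and TRIB3 (0.37 ± 0.074) stayed higher, while PSAT1 (-0.45 ± 0.068) and MTHFD2 (-0.56 ± 0.068) were lower (edgeR adjusted p of at most 0.00146 for these 4). On this CPM scale ATF4 and TRIB3 were thus higher in SC than in M1A with either set. On the TPM scale the TRIB3 ranges overlapped, with 52.74 to 58.47 TPM in the short-gene SC set and 52.57 to 54.3 TPM in M1A, and over all 6 SC libraries its call was lost with limma on log2(TPM + 1) (log2 fold change 0.13, limma adjusted p = 0.333). MTHFD2 averaged 166.8 TPM in the short-gene SC set and 171.3 TPM in M1A, the reverse of its CPM direction, and SHMT2 101.9 and 101.0 TPM. The mean gene length of the M1A libraries lay outside both sets, so that the vector and the library preparation cannot be told apart here.

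Calls also depended on the M1A libraries. Without M1A replicate 2 none of the 5 calls was left with edgeR, and without replicate 1 that of TRIB3 was left (edgeR adjusted p of the lost calls 0.0565 to 0.216). Leaving out any 1 of SC replicates 3 to 6 ended the calls of PSPH and ASNS (edgeR adjusted p = 0.0711 to 0.0845).

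In the same comparison, 27.8% of all genes tested were called higher and 25.3% lower. Of 25 other ATF4 targets, 11 rose in SC and 4 fell, with a median of 0.56 against 0.07 over all genes. CHAC1, which degrades glutathione, ATF3, a stress transcription factor, and CEBPB, a dimer partner of ATF4, rose by 2.42 ± 0.66, 1.83 ± 0.66 and 1.30 ± 0.15. With SC replicates 1 and 2 alone the list's median was 0.15 against 0.03 over all genes. Of its genes 10 were called higher and 4 lower, where 24.1% of all genes were higher and 27.2% lower. CHAC1 then rose by 0.91 ± 0.28, and ATF3 did not pass (log2 fold change 0.18, edgeR adjusted p = 0.323). Of 20 synthetases, 2 rose and 10 fell, led by IARS (-1.02 ± 0.15), EPRS (-0.87 ± 0.21) and RARS (-0.63 ± 0.089). Of 18 eIF2 genes, 0 rose and 10 fell, among them EIF2AK2 (-0.98 ± 0.14), DNAJC3 (-0.93 ± 0.16) and EIF2AK4 (-0.89 ± 0.19). One-carbon genes were 6 higher and 7 lower of 21, with CBS at 1.94 ± 0.36, ALDH1L2 at -1.62 ± 0.52 and MTR, the methionine synthase, at -0.68 ± 0.14. Glutamine and aspartate genes were 6 higher and 12 lower of 28, with ASS1 at 0.87 ± 0.16 and the glutamine transporter SLC38A1 at -0.76 ± 0.10.

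Of the 15 list genes that the naming rule picks in this comparison, 5 lost their calls without M1A replicate 1 and 9 without replicate 2 (edgeR adjusted p = 0.0501 to 0.185). ALDH1L2 and ATF3 also lost theirs without some of SC replicates 3 to 6 (edgeR adjusted p = 0.051 to 0.074).

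**Figure D5:**
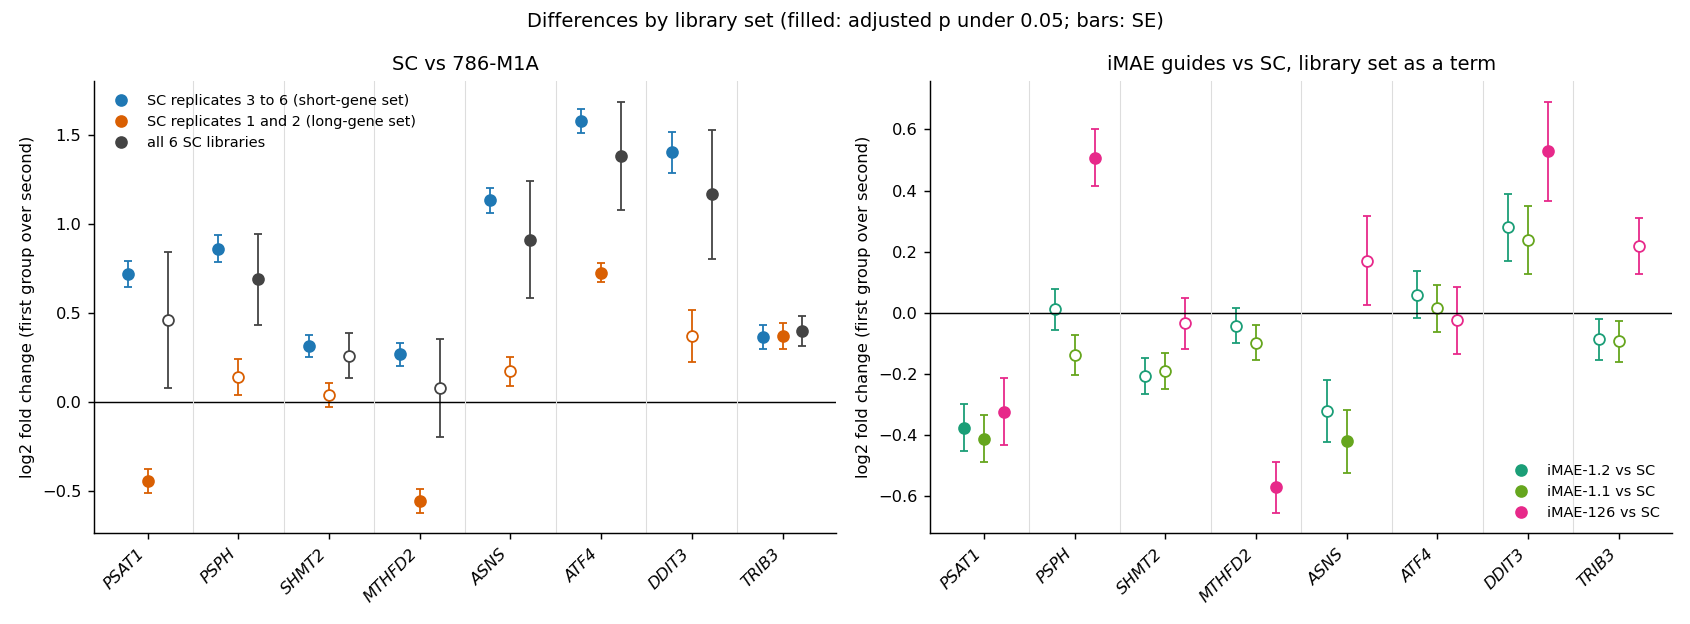
Log2 fold changes (y axis) of 8 genes (x axis) in SC vs M1A by the SC libraries used (left) and in the iMAE guides vs SC with library set as a term (right), with SE bars and filled points at an edgeR adjusted p under 0.05. On this count scale ATF4 and TRIB3 are above 0 with either SC set, PSAT1 and MTHFD2 change sign between the sets, and PSAT1 is called lower with all 3 guides.

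The iMAE guides were compared with SC. With all 6 SC libraries, none of the 8 genes was called with iMAE-1.2 or iMAE-1.1, by edgeR or by DESeq2, and 1 of 8, DDIT3, had an unadjusted p under 0.05 with each guide, as did 3127 of 15254 genes with iMAE-1.2 and 2741 with iMAE-1.1. Of all 15254 genes tested, 0.354% were called higher and 0.367% lower with iMAE-1.2, and 0.19% and 0.262% with iMAE-1.1. As the SC libraries of both sets enter this comparison and the guide libraries belong to the short-gene set, the set was added as a term. PSAT1 then was lower with both guides, with 1 call of 8 for iMAE-1.2 (1.39% of genes higher, 1.34% lower) and 2 of 8 for iMAE-1.1 (0.911% higher, 0.878% lower).

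PSAT1 had 197, 214, 176 and 174 CPM with iMAE-1.2 and 183, 173, 193 and 194 CPM with iMAE-1.1, against 277, 229, 257 and 223 CPM in the SC libraries of the same set. Every guide library was below every one of these SC libraries. How many of all genes lay apart in the same way was not counted, so that it is not known how unusual this separation is. Against the SC libraries of both sets together, PSAT1 overlapped with both guides. The log2 fold change was -0.38 ± 0.077 for iMAE-1.2 and -0.41 ± 0.077 for iMAE-1.1 (edgeR adjusted p = 0.0111 and 0.00719), and these comparisons share the SC libraries. ASNS had 60.2, 63.0, 68.9 and 72.8 CPM with iMAE-1.1, against 92.2, 84.0, 92.8 and 85.4 CPM in those SC libraries (log2 fold change -0.42 ± 0.10, edgeR adjusted p = 0.0426). With iMAE-1.2 ASNS had 80.3, 85.1, 61.4 and 57.4 CPM and did not pass (log2 fold change -0.32 ± 0.10, edgeR adjusted p = 0.114). Of its iMAE-1.2 libraries, 1 reached the range of these SC libraries. ATF4 showed little difference, with log2 fold changes of 0.06 ± 0.077 for iMAE-1.2 and 0.02 ± 0.077 for iMAE-1.1.

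With only SC replicates 3 to 6 as controls, the PSAT1 call was kept for both guides and that of ASNS was lost (edgeR adjusted p = 0.062). When iMAE-1.2 was set against iMAE-1.1, no gene of the 8 and no gene at all was called by edgeR (0.0% higher, 0.0% lower), where 116 genes had an unadjusted p under 0.05 and DESeq2 called 2. The log2 fold changes of the 8 between these guides ran from -0.01 ± 0.092 (SHMT2) to 0.15 ± 0.17 (PSPH). The libraries of iMAE-1.2 fell into pairs: the mean chi-square per gene was 3.95 between replicates 1 and 2 and 6.42 between 3 and 4, against 11.83 to 28.79 across these pairs. ATF4 stood at 821 and 804 CPM in the first pair and 632 and 657 CPM in the other. Other groups were split too. In the short-gene SC set the mean chi-square was 3.03 between replicates 3 and 5 and 2.24 between 4 and 6, against 5.79 to 8.94 across these. In iMAE-1.1 it was 5.52 between replicates 3 and 4, against 12.22 to 23.37 for every other pair. Deviations from group means correlated at -0.6 to -0.279 between same-numbered libraries of iMAE-1.2 and iMAE-1.1, and at up to 0.689 between others. The fit has no term for such pairing, and its part in the absence of calls was not tested.

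With iMAE-126, PSAT1 and MTHFD2 were lower than in all 6 SC libraries and the other 6 genes were not called by edgeR, against 6.21% of all genes higher and 9.24% lower. PSAT1 had 81.3 and 88.3 CPM with iMAE-126, against 105.5, 226 and 277 CPM in SC (lowest, median and highest of 6), a log2 fold change of -1.23 ± 0.31 (edgeR adjusted p = 0.0154). MTHFD2 had 77.2 and 78.8 CPM with iMAE-126, against 113, 202 and 228 CPM in SC (log2 fold change -1.21 ± 0.23, edgeR adjusted p = 0.00355). Both iMAE-126 libraries were below every SC library for both genes. The libraries lay apart for 3 of the 8 genes, as for 28.9% of all genes. DESeq2 also called ATF4 lower (log2 fold change -0.69, DESeq2 adjusted p = 0.0198), and limma on log2(TPM + 1) called TRIB3 higher (0.31, limma adjusted p = 0.0491).

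The iMAE-126 libraries belong to the long-gene set, with SC replicates 1 and 2. With the set as a term, 2 genes were called lower, where 10.4% of all genes were, and 2 higher, where 6.31% were. MTHFD2 stayed lower (77.2 and 78.8 CPM with iMAE-126, against 113 and 119 CPM in SC of the same set), with a log2 fold change of -0.57 ± 0.083 (edgeR adjusted p = 0.000328). PSAT1 stayed lower by a smaller margin, at -0.32 ± 0.11 (edgeR adjusted p = 0.0499). PSPH was higher, with 45.3 and 40.4 CPM against 31.9 and 28.2 CPM in SC of the same set (0.51 ± 0.093, edgeR adjusted p = 0.0018), and so was DDIT3, with 13.3 and 12.7 CPM against 8.8 and 9.35 CPM (0.53 ± 0.16, edgeR adjusted p = 0.0311). ATF4 did not differ beyond its error in this fit (-0.03 ± 0.11, edgeR adjusted p = 0.907). With SC replicates 1 and 2 as the only controls, the calls of PSAT1 (edgeR adjusted p = 0.058) and DDIT3 (edgeR adjusted p = 0.0511) were lost.

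Each of the iMAE-126 calls against all 6 SC libraries was lost without either iMAE-126 library (edgeR adjusted p = 0.0622 to 0.143), and without SC replicate 1 or 2 SHMT2, ASNS and ATF4 were called lower as well (5 of 8). The fits without SC replicate 1 or 2 called 2122 and 2156 of all genes lower, against 1410 with all libraries. Among other ATF4 targets, 3 of 25 rose and 7 fell relative to SC, against 6.21% of all genes higher and 9.24% lower. In the lead were ATF3 (log2 fold change -1.81 ± 0.54), CHAC1 (-1.79 ± 0.58) and STC2 (-1.34 ± 0.29). With the set as a term ATF3 (-0.16) and CHAC1 (-0.27) did not pass (edgeR adjusted p = 0.71 and 0.716). The count was again 3 higher and 7 lower, where 6.31% of all genes were higher and 10.4% lower. Without that term, of 20 synthetases 0 rose and 7 fell, led by FARSB (-0.55 ± 0.088), DARS (-0.43 ± 0.097) and TARS (-0.39 ± 0.086). Of 18 eIF2 genes 0 rose and 3 fell in the same fit (EIF2AK3, EIF2S3 and EIF2B1, -0.44 to -0.28).

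Of 21 one-carbon genes 2 rose and 1 fell with iMAE-126, against 6.21% of all genes higher and 9.24% lower. Among them were SHMT1, the cytosolic form of SHMT2 (0.34 ± 0.084), and SLC1A4 (-0.50 ± 0.13). Among 28 glutamine and aspartate genes 0 rose and 5 fell, with CTPS1, of cytidine nucleotide synthesis, at -0.50 ± 0.11 and PPAT at -0.38 ± 0.12. Of the 15 list genes that the rule picks here, 13 lost their calls without iMAE-126 replicate 1, though not FARSB, and 14 without replicate 2, FARSB among them. ATF3 and CHAC1 lost theirs without any 1 of SC replicates 3 to 6, PPAT and EIF2AK3 without replicate 3, 4 or 6, and EIF2S3 and EIF2B1 without replicate 3. With the set as a term, PPAT and EIF2S3 lost their calls too (edgeR adjusted p = 0.0509 and 0.072), and STC2 stood at -0.65 ± 0.20. Called higher and lower then were 0 and 8 of 20 synthetases and 1 and 6 of 18 eIF2 genes. One-carbon genes were 3 and 2 of 21, and glutamine and aspartate genes 0 and 6 of 28, against 6.31% and 10.4% of all genes. In the lists without the set term, iMAE-1.2 gave 1 call against SC, the proline enzyme ALDH4A1 (-0.44 ± 0.094, edgeR adjusted p = 0.044). It was lost without any 1 library other than SC replicate 5, and iMAE-1.1 gave none. With the set as a term, PYCR1, a proline synthesis enzyme, was lower with both (-0.35 ± 0.060 for iMAE-1.2 and -0.30 ± 0.059 for iMAE-1.1, edgeR adjusted p = 0.0029 and 0.00956).

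Genes most like each member were sought over the 7 group means of log2 CPM (with 0.5 CPM added) among 12268 genes, as a description, since the groups share library sets and descent. PSAT1 was most like the solute carrier gene SLC35F2 (Pearson r = 0.995 over 7 groups) and MTHFD2 most like DNAH14 (r = 0.995) and the mitochondrial ribosomal protein gene MRPL3 (r = 0.993). ATF4 was most like ZNF212 (r = 0.999), ASNS like SLC38A6 (r = 0.985), PSPH like TSFM (r = 0.987), SHMT2 like SOD2 (r = 0.999), DDIT3 like ZBTB40 (r = 0.995) and TRIB3 like KCTD4 (r = 0.998). PHGDH was most like GALC and GLUL most like NTF3 (r = 1.00), patterns that OS-LM1 alone sets. No member was among the 2 genes most like another.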

How the data were processed

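The 22 stranded poly(A) libraries came from cultured lines, per the labels' protocols. Tools listed per the submitters' processing notes are RSEM and Bowtie2, with the build hg19 and no versions. Values per gene are the authors' RSEM expected counts, deposited unrounded, of which 27.2% to 31.2% per library are not whole, and the authors' TPM, which also divide by gene length, per the file headers.

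Here the expected counts were rounded to integers for edgeR 4.0.16 (R 4.3.3): TMM scaling, the filterByExpr function with min.count 10, robust quasi-likelihood tests and Benjamini-Hochberg adjustment over every gene tested. A call means an adjusted p below 0.05. Separate models were fitted to the lines (6 libraries), to SC with M1A (8) and to the CRISPRi libraries (16). CPM divide the unrounded count by library total and TMM factor over all libraries. PHGDH and GLUL passed the filter through OS-LM1 alone, so counts of calls cover the 8 other members. The members and gene lists were chosen with earlier results of these data known. From each list, up to 3 called genes with the largest log2 fold change and a mean of at least 5 CPM in either group are named, and for each member the 2 genes best correlated over group means were taken. Alternatives were RLE scaling, DESeq2 1.42.0, other filters, limma 3.58.1 on log2(TPM + 1) and log2(TPM + 0.1), a replicate block, the compared groups alone, a log2 fold change of at least 1, library sets and each library left out. A crossed block was added after seeing the data. The fit was tested on simulated data. No file was identical to another. Mean chi-square per gene between libraries of a group was 2.24 to 86.97, above sampling noise. Other steps used Python 3.11.15, pandas 2.3.3, numpy 2.4.6 and matplotlib 3.10.9. A few genes that the naming rule picks are not reported here.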

Additional observations from a re-analysis of the deposited data

Results flagged for a closer look

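Within the groups of 4 to 6 libraries, 24 sets of values of the 8 genes were looked at for a library far from the others, and 2 stood out, where chance flags about 1 in 20 sets (5%). PSPH was lowest in iMAE-1.2 replicate 4, at 48.18 CPM, where the other libraries of the group lay between 52.78 and 52.97 CPM. MTHFD2 was lowest in the same library, at 196.4 CPM, where the others lay between 209.1 and 209.6 CPM. In both cases the other 3 libraries were unusually close to each other.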

How the results depend on the processing

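Of 1096 log2 fold changes of the 8 genes under the alternatives, 986 kept their direction and side of the threshold, 79 fell short of it, 24 newly passed it and 7 reversed. The reversals were PSAT1 and MTHFD2 in SC vs M1A with the replicate block (-0.439 and -0.55) and with the long-gene SC set alone (-0.446 and -0.556), and PSPH and DDIT3 in iMAE-126 vs SC with the set as a term (0.507 and 0.529) and PSPH with SC of the same set (0.509). With the replicate block, the SC vs M1A difference comes from replicates 1 and 2 alone, by construction.

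The number of the 8 genes called moved by more than 1.5 times as follows. In M1A vs 786-O (5 called) it was 8 with the compared groups alone, 0 at a log2 fold change of at least 1, and 1 to 2 with 1 library left out. In OS-LM1 vs 786-O (7) it was 3 at a log2 fold change of at least 1 and 4 to 7 with 1 library left out. In SC vs M1A (5) it was 3 without the filter, 2 with limma on log2(TPM + 1), 2 on log2(TPM + 0.1), 2 at a log2 fold change of at least 1, 8 with the short-gene SC set, and 0 to 5 with 1 library left out. In iMAE-1.1 vs SC (0) it was 2 with the set as a term and 1 with SC of the same set, and in iMAE-1.2 vs SC (0) it was 1 and 1. In iMAE-126 vs SC (2) it was 0 with the replicate block, 1 with the groups alone, 4 with the set as a term, and 0 to 5 with 1 library left out. The cause of these shifts was not tested.

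Replicate numbers did not pair the libraries. Libraries of iMAE-1.2 and iMAE-1.1 with different numbers, however, correlated at up to 0.689 in their deviations from group means. No fit had a term for this. The replicate block gave 4 calls in M1A vs 786-O, 8 in OS-LM1 vs M1A, 6 in OS-LM1 vs 786-O, 6 in SC vs M1A and 0 in each comparison of iMAE-1.1 or iMAE-1.2. A crossed block gave 8 for OS-LM1 vs M1A and 7 for OS-LM1 vs 786-O.

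Over all genes, 5064 were called in M1A vs 786-O, 8733 with the groups alone, 1931 at a log2 fold change of at least 1 and 2259 to 2551 with 1 library left out. At that fold change 6128 of 11232 were left in OS-LM1 vs M1A, 5183 of 10405 in OS-LM1 vs 786-O and 2953 of 7832 in SC vs M1A, which fell to 3035 and 1999 genes without M1A replicate 1 or 2. For iMAE-1.1 vs SC (69) the counts ran from 2 with the block to 421 with DESeq2, for iMAE-1.2 vs SC (110) from 2 to 672, and for iMAE-126 vs SC (2357) from 61 with the block to 3851 without SC replicate 2.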
